A study of Rattus norvegicus with 18 samples.

Results

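Cytosolic ribosomal proteins are the protein part of the ribosomes that translate nuclear-encoded messenger RNA. They comprised 47 genes here, 33 of the large and 14 of the small subunit, among 14218 genes with a probe set of their own. They were taken by name: every probe set whose only annotated symbol was that of a ribosomal protein (Rpl, Rps or Rplp with its number and paralogue letter), without the ribosomal S6 kinases and the mitochondrial ribosomal proteins. The rule found 52 probe sets, and for the 5 genes with several the one with the highest mean was used. Another 36 probe sets named for a ribosomal protein together with a further symbol were left out.

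The study asked how the quantity of paradoxical (rapid eye movement) sleep changes transcripts in the rat brain. The groups were male Sprague-Dawley rats. They were deprived of paradoxical sleep for 78 h on small platforms over water, allowed 6 h of sleep after 72 h of that deprivation (recovery), or left in the home cage (control). Right hippocampal formation and right neocortex of the same 12 rats a state were taken, all rats carried recording electrodes, and all were killed at the same hour. Each state had 2 sets of 6 rats. Total RNA of a set was pooled and hybridised to Affymetrix rat arrays, with 2 arrays for a pool of set 1 and 1 array for a pool of set 2. This gave 18 arrays of 12 pools, 2 pools for each of 6 groups. A pool averages 6 rats, so differences between rats within a pool cannot be seen. The platforms change more than sleep alone (confinement, wetting, activity), and the design has no platform control, so these cannot be told apart from the loss of paradoxical sleep.

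A ribosome has a small subunit, which binds the messenger RNA and reads the codons, and a large subunit, which joins the amino acids. Nearly every ribosomal protein is present in a single copy per ribosome, and cells make them in matching amounts. Their messenger RNAs start with a C followed by a run of C and T (the terminal oligopyrimidine tract), through which the kinase mTOR sets how strongly they are translated. In neurons these transcripts are among the most abundant and are also carried into dendrites and axons. Arrays measure the amount of these messenger RNAs and not their translation, and in tissue RNA fewer cells of a type and less RNA per cell cannot be told apart.

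Of the 47 genes, 42 passed the filter on dim probe sets (a mean log2 signal of 4.30, which the lowest 40% of all probe sets did not reach). The level of a gene is the log2 of its deposited signal, averaged over pools. Signals of different probe sets depend on the probes, so the order below is one of array signal and not of transcript number.

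A bright class of 37 genes had mean log2 signals between 9.94 (Rpl14) and 12.09 (Rps29), with a median of 10.95, a signal of 1974. The median over all 18625 probe sets kept was 6.53, a signal of 92.4, and the dimmest of the 37 stood at the 96.4th percentile. The brightest was Rps29, a zinc-binding protein of the small subunit. Rps29 read 5103 and 4076 in deprived, 5116 and 3868 in recovery and 5465 and 3948 in control hippocampal formation. In the neocortex its signals were 4556 and 3656 in deprived, 4622 and 4064 in recovery and 4516 and 3671 in control rats. The first signal of each pair was set 1, and in all 6 groups set 1 was the higher. Next came Rpl26 (mean log2 11.80), Rps23 of the decoding centre (11.77), Rpl3, which reaches towards the peptidyl transferase centre (11.60), and Rpl37a (11.55). Their ranges over the 12 pools overlapped, from 11.46 to 12.05 for Rpl26 and from 11.54 to 12.0 for Rps23.

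**Figure D1:**
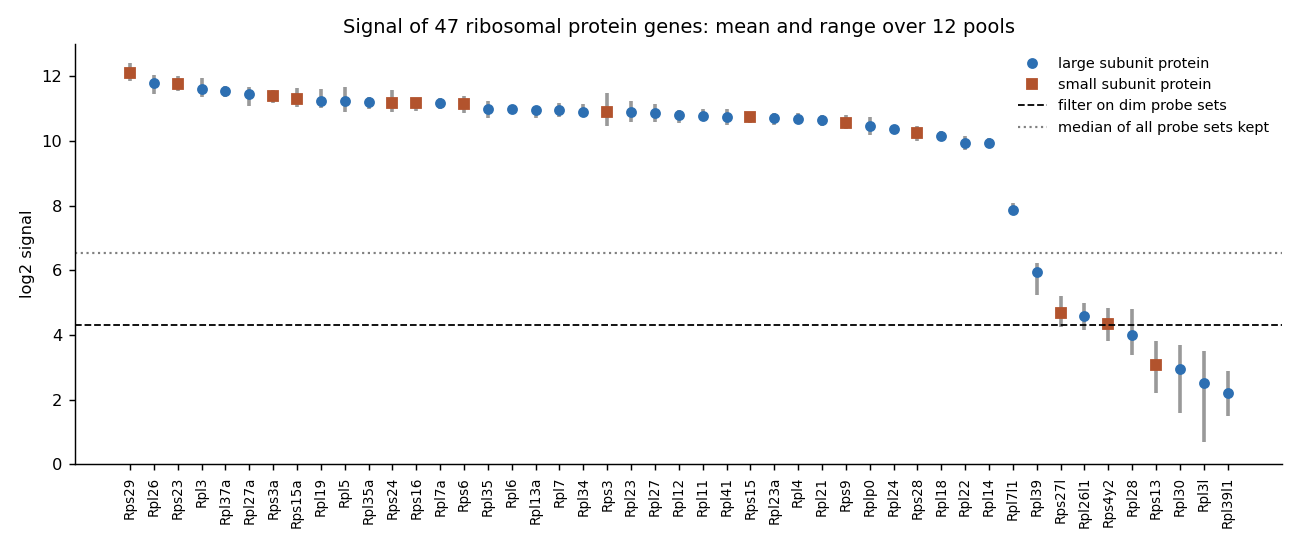
Mean log2 signal (symbols) and range over 12 pools (bars) of each of the 47 genes, ordered by mean. The 37 bright genes lie between 9.94 and 12.09, 5 genes lie between the filter level of 4.30 and 7.85, and 5 genes lie below it.

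The other 5 genes that passed the filter were dimmer, and most are paralogues of a ribosomal protein. Rpl7l1, the paralogue of Rpl7 that acts in ribosome assembly, had a mean of 7.85, against 10.95 for Rpl7. Rps27l, a paralogue of Rps27 known as a p53 target, had a mean of 4.69. Rpl26l1, the paralogue of Rpl26, had 4.59, against 11.80 for Rpl26. Rps4y2, a paralogue of Rps4x, had 4.34, and Rpl39, a small protein of the exit tunnel, 5.94. These distances between genes are differences of array signal.

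The 5 genes under the filter were Rpl28 (3.99), Rps13 (3.08), Rpl30 (2.95), Rpl3l (2.53) and Rpl39l1 (2.22). Rpl28, Rps13 and Rpl30 are core proteins of every ribosome, while Rpl3l is known from striated muscle, where it takes the place of Rpl3. Rpl30 read 7 and 3 in deprived, 4 and 7 in recovery and 13 and 7 in control hippocampal formation, and 8 to 11 in the neocortex, below the level at which a state could be compared. Whether a low value reflects the probes or the transcript was not tested. Second probe sets show the size of such probe effects. Rpl3 read a mean of 3100 on one probe set and 51.2 on the other, Rps24 read 2337 and 27.8, and Rpl14 read 982 and 5.02. Other proteins of known role (Rplp1, Rplp2, Rps27a, Rpl10, Rps19, Rps27, Rps4x, Rpl22l1 and Rpl10l) had no probe set of their own and were not analysed here. Of the 36 probe sets with several symbols, 31 lay above the dimmest of the bright class, so much of the family is measured on the array but cannot be assigned to 1 gene.

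Between sleep states no ribosomal protein transcript passed the test. With limma on all 12 pools and Benjamini-Hochberg adjustment over all probe sets, 0 of 42 genes were called at an adjusted p under 0.05 in each of the 6 comparisons, against 0% of all probe sets. At an unadjusted p under 0.05 the count was 0 of 252 gene and comparison pairs, against 1.23% over all. With the set as a replicate block, 0 of 252 passed after adjustment, against 0.00268% over all, and 3 of 252 at an unadjusted p under 0.05, against 6.09% over all. The values of the states overlapped for nearly every gene. The 2 pools of one state lay wholly above or below the 2 of the other in 10 of 252 pairs, 3.97%. Over all probe sets the share was 22.4%. This count compares pools across sets, so it also depends on the difference between sets. That difference (set 1 minus set 2) had a median of 0.23 for the brightest 37 genes and -0.01 over all probe sets. The low share is therefore no measure of stability between states. Within sets, recovery minus deprived neocortex had 24 of 42 genes higher in both sets and 4 lower in both. For deprived minus control hippocampal formation these counts were 9 and 8. In the neocortex they were 19 and 4 for recovery minus control and 8 and 15 for deprived minus control. In the hippocampal formation they were 2 and 15 for recovery minus control and 6 and 17 for recovery minus deprived. The same counts were not taken over all probe sets, so they are no measure of a change in the family.

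For the 37 bright genes the bounds on a change were narrow only under the replicate block. Their largest change was 0.18 on the log2 scale, and under the replicate block the 222 intervals (95%) of their changes reached from -0.33 to 0.34, at most 1.27-fold higher and 1.26-fold lower. Without the block they reached from -0.82 to 0.83, at most 1.78-fold higher and 1.765-fold lower. The median half-width of an interval was 0.14 with the block and 0.35 without it. Of the 222 intervals 3 left out 0 with the block, for Rps3 (0.18 and -0.17) and Rpl27a (0.18), and 0 did without it.

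After deprivation the medians lay close to 0. In the hippocampal formation the median change of the 42 genes was -0.0037, with 20 genes higher, and the median over all probe sets was 0.0040. In the neocortex the median was -0.022, with 16 genes higher, against 0.0087 over all. After quantile normalization these medians were 0.020 in the hippocampal formation and 0.0082 in the neocortex, so the sign of neither is settled.

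Rps3 showed the largest change of a bright gene. It is a small subunit protein at the entry of the messenger RNA channel and is also known as a DNA repair endonuclease. In the hippocampal formation its log2 signals were 11.49 and 10.83 in deprived, 11.29 and 10.69 in recovery and 11.19 and 10.77 in control rats. The difference of deprived minus control rats was 0.18 (SE 0.29, adjusted p = 1.0, limma) and that of recovery minus deprived rats -0.17. The sets differed by 0.66 within deprived rats, more than any difference between states. Under the replicate block the 2 differences had unadjusted p-values of 0.0309 and 0.0413 and adjusted p-values of 0.80 and 0.68 (limma). In the neocortex Rps3 read 10.97 and 10.47 in deprived, 11.05 and 10.57 in recovery and 10.88 and 10.58 in control rats, without separation of the states.

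Rps28, at the exit of the messenger RNA channel, was 0.093 higher in deprived than control hippocampal formation, Rpl26 0.069 and Rpl23 0.057. The lowest differences there were Rps27l (-0.19), Rpl19 (-0.13), Rpl39 (-0.13) and Rpl27 (-0.10). Rpl39 moved in opposite directions in the sets, by 0.26 in set 1 and by -0.51 in set 2. In the neocortex the highest were Rps4y2 (0.40), Rpl7l1 (0.099), Rps16 (0.089) and Rpl21 (0.055), and the lowest Rpl23 (-0.14), Rps27l (-0.12), Rpl26 (-0.085) and Rpl22 (-0.081). None of these passed the test.

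Rps4y2 was the member with the largest change in any state comparison, at signals close to the filter. It read 21 and 28 in deprived and 20 and 27 in recovery neocortex, against 18 and 20 in controls. Deprived and recovery pools lay above both control pools, with log2 differences of 0.40 (SE 0.29) and 0.34 (SE 0.29) and adjusted p-values of 1.0 for both (limma). In the hippocampal formation it read 14 and 21 in deprived, 17 and 24 in recovery and 18 and 18 in control rats, and the states overlapped.

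Recovery sleep went with small median differences of opposite sign in the structures. In the hippocampal formation the median of recovery minus control rats was -0.043, with 10 of 42 genes higher, and that of recovery minus deprived rats -0.036, with 12 higher. In the neocortex the median of recovery minus control was 0.043, with 29 of 42 higher, and that of recovery minus deprived 0.053, with 32 higher. The medians over all probe sets lay between -0.0061 and 0.0060. Neither structure's shift was called for any gene, and both recovery comparisons of a structure share the same recovery pools. Within sets, the hippocampal median of recovery minus control was -0.081 in set 1 and 0.0030 in set 2. The neocortical one was 0.014 in set 1 and 0.067 in set 2. After quantile normalization the medians of recovery minus control were -0.0091 in the hippocampal formation and 0.024 in the neocortex. For recovery minus deprived the hippocampal median was -0.022 in set 1, -0.050 in set 2 and -0.032 after quantile normalization. The neocortical one was 0.024 in set 1, 0.060 in set 2 and 0.018 after quantile normalization.

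**Figure D2:**
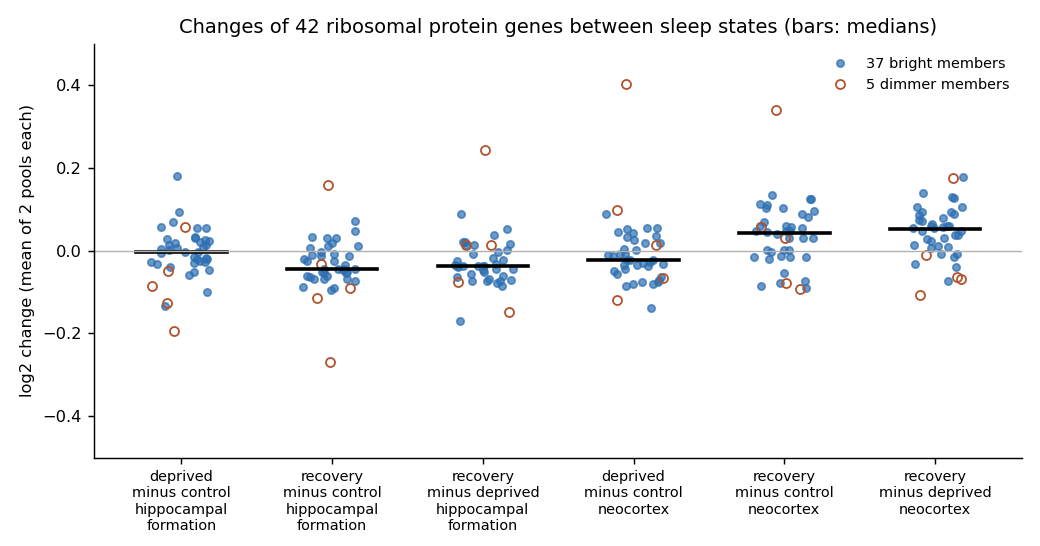
Log2 change of each of the 42 genes in 6 comparisons of sleep states (points, filled for the 37 bright genes), with the median as a bar. The medians lie between -0.043 and 0.053, and the points past 0.2 in either direction are dimmer genes.

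In recovery minus control hippocampal formation the highest values were Rps4y2 (0.16), Rps28 (0.071), Rps15a (0.047) and Rpl12 of the stalk base (0.033), and the lowest Rps27l (-0.27), Rpl39 (-0.11), Rps24 (-0.096) and Rpl14 (-0.090). In the neocortex they were Rps4y2 (0.34), Rps16 (0.14), Rpl13a, known as a translational silencer in inflammation (0.13), and Rpl12 (0.12), and the lowest Rpl26l1 (-0.093), Rpl23 (-0.089), Rps9 (-0.084) and Rpl23a (-0.077). For recovery minus deprived rats the highest hippocampal values were Rps4y2 (0.24), Rpl19 (0.090), Rpl27 (0.053) and Rpl12 (0.037), and the lowest were Rps3, Rpl26l1 (-0.15), Rpl7 (-0.085) and Rpl18 (-0.077). In the neocortex the highest were Rpl27a (0.18), Rps27l (0.18), Rpl27 (0.14) and Rpl26 (0.13), and the lowest Rpl26l1 (-0.11), Rpl18 (-0.072), Rpl7l1 (-0.069) and Rps4y2 (-0.064).

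Rpl27a carried the largest neocortical change of a bright gene. Its log2 signals were 11.66 and 11.40 in recovery neocortex, against 11.62 and 11.07 in deprived neocortex. The 0.18 came mostly from set 2, where the difference was 0.32, against 0.034 in set 1. Under the replicate block its unadjusted p was 0.0301 and its adjusted p 1.0 (limma).

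Rps6, the ribosomal protein that the S6 kinases phosphorylate and a common read-out of mTOR activity, was not called in any state comparison. It read 11.28 and 11.03 in deprived, 11.26 and 10.95 in recovery and 11.35 and 10.96 in control hippocampal formation. In the neocortex it read 11.34 and 10.87 in deprived, 11.33 and 10.91 in recovery and 11.39 and 10.89 in control rats. Within each set and structure the states lay close together, and the sets lay apart. Its phosphorylation is not measured by an array.

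Rpl5 and Rpl11, which bind 5S ribosomal RNA and restrain Mdm2 when ribosome assembly fails, did not pass the test between states either. Rpl5 read 11.48 and 11.18 in deprived, 11.52 and 11.12 in recovery and 11.68 and 11.01 in control hippocampal formation. Rpl11 had signals of 1958 and 1678 in deprived, 1893 and 1650 in recovery and 2047 and 1723 in control hippocampal formation. In the hippocampal formation the sets lay further apart than the states for both. In the neocortex Rpl5 kept that order, while the sets of Rpl11 differed by 0.001 on average.

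A few transcripts differed between the structures. In the hippocampal formation 7 of the 42 genes were higher than in the neocortex and 0 were lower, by limma on the differences of the 6 animal pools at an adjusted p under 0.05. Over all probe sets 9.4% were higher and 10.5% lower in the hippocampal formation. The 7 were Rps3, Rps24, Rplp0, Rpl3, Rps28, Rpl18 and Rpl7, 3 of the small and 4 of the large subunit, and each was higher in 6 of 6 animal pools. All 7 were of the bright class, and the differences were small, from 1.11-fold to 1.22-fold.

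Rps3 differed most, by 0.29 (SE 0.047, adjusted p = 0.00627, limma). Its hippocampal log2 mean was 11.04 and its neocortical mean 10.75. The differences were 0.52 and 0.36 in deprived, 0.24 and 0.12 in recovery and 0.31 and 0.19 in control pools (set 1, then set 2), so every pool showed it and recovery pools showed least.

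Rps24, a small subunit protein needed to mature 18S ribosomal RNA, read 11.51 and 11.13 in deprived, 11.46 and 11.06 in recovery and 11.57 and 11.13 in control hippocampal formation. In the neocortex it read 11.12 and 10.91 in deprived, 11.22 and 11.02 in recovery and 11.20 and 10.96 in control rats. The structures overlapped across sets and separated within each set. The difference was 0.24 (SE 0.053, adjusted p = 0.0198, limma).

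Rplp0, the base of the large subunit stalk that calls in the elongation factors, read 10.65 and 10.42 in deprived, 10.61 and 10.49 in recovery and 10.75 and 10.44 in control hippocampal formation. In the neocortex it read 10.38 and 10.26 in deprived, 10.44 and 10.34 in recovery and 10.47 and 10.19 in control rats. The difference was 0.22 (SE 0.043, adjusted p = 0.0138, limma), and its 6 animal pools ranged only from 0.15 to 0.28.

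Rpl3 read 11.88 and 11.51 in deprived, 11.88 and 11.49 in recovery and 11.94 and 11.46 in control hippocampal formation. In the neocortex it read 11.62 and 11.35 in deprived, 11.61 and 11.41 in recovery and 11.65 and 11.38 in control rats. The difference was 0.19 (adjusted p = 0.0401, limma), with 0.27 to 0.29 in the pools of set 1 and 0.071 to 0.16 in those of set 2.

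Rps28 was higher by 0.17 (pools from 0.072 to 0.28, adjusted p = 0.0362, limma). Rpl18, a large subunit protein, was higher by 0.16 (0.087 to 0.23, adjusted p = 0.0461). Rpl7, which sits near the 5S ribosomal RNA, was higher by 0.15 (0.082 to 0.21, adjusted p = 0.0412). Second probe sets, all dimmer, did not give the same values: the differences there were -0.080 for Rpl7, 0.72 for Rpl3 and 0.065 for Rps24. With a gene's probe sets averaged, Rpl7 was 0.034 (adjusted p = 0.70), Rpl3 0.46 (adjusted p = 0.0979) and Rps24 0.15 (adjusted p = 0.0925), and none of them was called (limma). Rpl19, just outside the threshold, was higher by 0.15 in 6 of 6 pools with an adjusted p of 0.055. Rpl5 was higher by 0.20, but in 5 of 6 pools, with an adjusted p of 0.069.

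**Figure D3:**
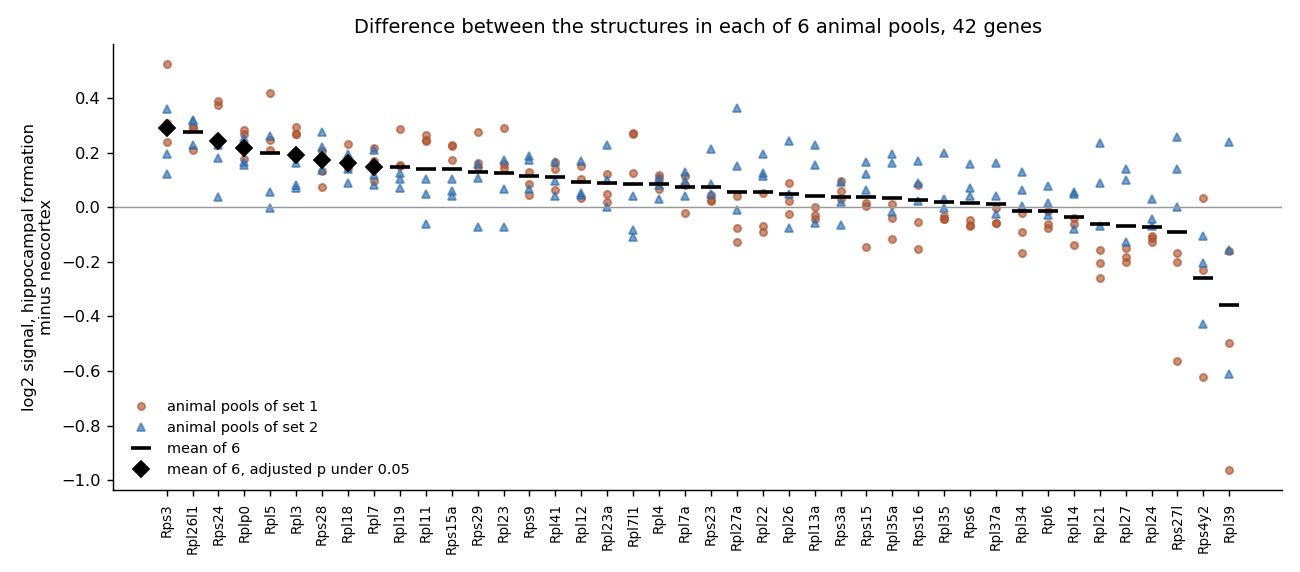
Log2 signal of hippocampal formation minus neocortex for each of 42 genes in 6 animal pools (circles, set 1; triangles, set 2), ordered by the mean. The 7 genes past the test (diamonds) lie between 0.15 and 0.29, and the widest scatter is that of the dim genes Rps27l, Rps4y2 and Rpl39.

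**Figure D4:**
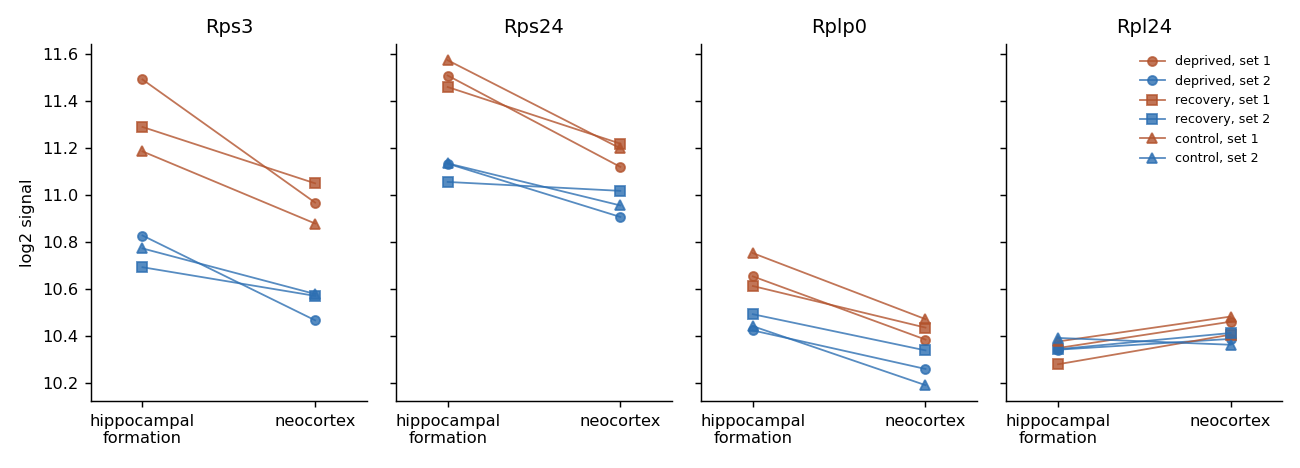
Log2 signal of Rps3, Rps24, Rplp0 and Rpl24 in hippocampal formation and neocortex, with a line for each of the 6 animal pools. Lines of Rps3, Rps24 and Rplp0 all fall towards the neocortex, while Rpl24 is higher in the neocortex in 5 of 6 pools, and set 1 lies above set 2 for the first 3 genes.

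At the low end were Rpl39 (-0.36), Rps4y2 (-0.26), Rps27l (-0.090), Rpl24 (-0.072), Rpl27 (-0.070) and Rpl21 (-0.061), none of them called. Rpl39 ranged from -0.96 to 0.24 over the pools. Rpl24, which bridges the subunits, was lower in 5 of 6 pools, at 10.35 on average in the hippocampal formation and 10.42 in the neocortex. Among the dim paralogues, Rpl26l1 was higher in the hippocampal formation by 0.28 in 6 of 6 pools, and Rpl26 by 0.050 in 4 of 6, and neither was called.

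Over all 42 genes the median difference was 0.073, with 33 higher, against -0.015 over all probe sets. The other 630 probe sets at least as bright as the dimmest bright member had a median of 0.069, with 429 higher, close to that of the family. Among these 630 are the 31 that name a ribosomal protein together with a further symbol. Quantile normalization gives every array the same distribution. After it the median of the family was 0.0077, with 22 of 42 higher, and that of the other bright probe sets -0.0020. Rps3, Rps24 and Rplp0 were still called then, as 3 genes higher, against 9.75% over all. With the replicate block 15 genes were higher and 1, Rpl39, lower, against 20.3% and 22.7% over all. With the block and quantile normalization together 9 were higher and 6 lower, against 21.3% and 21% over all, so the one-sided direction did not hold there. The 8 genes that the block alone added as higher were Rpl5, Rpl19, Rpl11, Rps15a, Rps29, Rpl23, Rps9 and Rpl41. Without any 1 of the 3 animal pools of set 1 only Rps3 was called, and it was called in each of the 6 fits that left out a pool.

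Markers of the structures, of astrocytes, oligodendrocytes and vessels moved with this comparison. In it 9.4% of all probe sets were called higher and 10.5% lower, or 20.3% and 22.7% with the replicate block. Of 7 hippocampal neuron markers kept, 7 were higher in the hippocampal formation, and of 9 neocortical neuron markers 6 were lower, in the direction of the labels. With the block 1 of the 9 was called higher. All 7 kept markers of striatal neurons were called lower, with summed signals of 417 to 585 there and 1377 to 1653 in the neocortex. Astrocyte markers were higher for 2 of 8, or 5 with the block, with sums of 11524 to 12763 in the hippocampal formation and 9758 to 11464 in the neocortex. Oligodendrocyte markers were higher for 2 of 7, or 6 with the block, with sums of 10714 to 15342 in the hippocampal formation and 10067 to 12134 in the neocortex. Endothelial markers were lower for 3 of 7, or 4 with the block, with sums of 921 to 1080 in the hippocampal formation and 1086 to 1264 in the neocortex. Meningeal markers were higher for 2 of 8 and lower for 6. Of 7 microglial markers 0 were called, or 2 lower with the block, and their median difference was -0.081. Of 3 choroid plexus and 3 red cell markers 0 were called, with or without the block. The 3′ to 5′ signal ratio of beta-actin, a sign of RNA quality, was 2.33 to 2.52 in the hippocampal formation and 2.35 to 3.17 in the neocortex, and lower in the hippocampal formation in 5 of 6 animal pools. The same ratio of GAPDH was 1.09 to 1.17 in the hippocampal formation and 1.05 to 1.17 in the neocortex. This second ratio was higher in the hippocampal formation in most animal pools. The part of cell composition and of RNA quality in the ribosomal differences was not tested.

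The difference between the structures did not depend detectably on sleep state. The interaction test called 0 of 42 genes in each of 3 comparisons, against 0% over all, and 0 of 126 at an unadjusted p under 0.05, against 1.35%. With the replicate block it called 0 genes, against 0.00358%, and 4 of 126 at an unadjusted p under 0.05, against 5.37%. These 4 were Rps3 (0.19 for deprived minus control, -0.26 for recovery minus deprived), Rpl23 (0.20 for deprived minus control) and Rps16 (-0.19 for recovery minus control), with adjusted p-values of 0.72 to 0.98 (limma). The median interaction of the 42 genes was -0.0029 for deprived minus control, -0.063 for recovery minus control and -0.070 for recovery minus deprived, and 5 of 42 genes were above 0 in the last.

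The promoters of the genes called between the structures are shown with 4 others of the family, since the start of the transcript carries the tract that ties these messenger RNAs to mTOR. Each line gives the 80 bases before and the first 20 bases from the annotated start in RefSeq, build GRCr8, 5′ to 3′. Capitals mark the longest run of C and T that overlaps the 30 bases before or 20 after the start, where it has 5 bases or more. Rpl7 had no entry. Rpl19 and Rpl35a show a tract at the annotated start, and Rpl26l1 and Rpl7l1 are dim paralogues.

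Rps3, chr1:163195757-163195856, minus strand: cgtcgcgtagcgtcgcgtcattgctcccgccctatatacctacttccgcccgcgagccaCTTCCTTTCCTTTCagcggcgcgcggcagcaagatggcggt

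Rps24, chr16:96437-96536, plus strand: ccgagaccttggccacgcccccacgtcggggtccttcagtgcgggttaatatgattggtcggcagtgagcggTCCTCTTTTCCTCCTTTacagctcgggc

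Rplp0, chr12:46718371-46718470, minus strand: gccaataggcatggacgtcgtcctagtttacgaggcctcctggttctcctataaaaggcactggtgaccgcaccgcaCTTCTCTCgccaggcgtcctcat

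Rpl3, chr7:113507971-113508070, minus strand: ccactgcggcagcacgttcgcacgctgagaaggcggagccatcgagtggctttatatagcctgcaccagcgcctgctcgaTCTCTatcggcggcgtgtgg

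Rps28, chr7:15311314-15311413, minus strand: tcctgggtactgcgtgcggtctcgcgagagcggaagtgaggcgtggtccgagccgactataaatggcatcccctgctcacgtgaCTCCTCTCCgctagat

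Rpl18, chr1:105325190-105325289, plus strand: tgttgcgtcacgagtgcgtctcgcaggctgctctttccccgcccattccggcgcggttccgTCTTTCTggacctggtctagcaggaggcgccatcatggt

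Rpl19, chr10:83518984-83519083, plus strand: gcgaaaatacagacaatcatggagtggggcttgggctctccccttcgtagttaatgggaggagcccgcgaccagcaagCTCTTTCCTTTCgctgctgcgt

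Rpl35a, chr11:81235002-81235101, minus strand: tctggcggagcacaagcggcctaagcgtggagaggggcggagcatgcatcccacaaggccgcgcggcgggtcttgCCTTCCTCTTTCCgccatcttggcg

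Rpl26l1, chr10:17029009-17029108, minus strand: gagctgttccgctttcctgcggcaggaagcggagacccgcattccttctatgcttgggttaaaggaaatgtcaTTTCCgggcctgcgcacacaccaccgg

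Rpl7l1, chr9:21695638-21695737, plus strand: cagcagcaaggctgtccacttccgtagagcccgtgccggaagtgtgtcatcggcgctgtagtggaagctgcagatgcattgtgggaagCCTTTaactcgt

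The tract of Rps24, Rplp0, Rpl3, Rpl19 and Rpl35a takes in the annotated start. Those of Rps3, Rpl18 and Rpl26l1 lie wholly before it and those of Rps28 and Rpl7l1 wholly after it. The run was 17 bases in Rps24, 14 in Rps3, 13 in Rpl35a, 12 in Rpl19, 9 in Rps28, 8 in Rplp0 and 7 in Rpl18. It was 5 in Rpl3 and in both paralogues. Of the 47 genes 40 had a promoter entry. A C at the annotated start followed by at least 4 C or T was found in 11 of 40, 27.5%, against 2.63% of 27457 genes. A run of at least 8 C or T near the start was found in 27 of 40, 67.5%, against 25.0%. Annotated starts can be some bases off, so the second count is the more tolerant one.

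Simple motifs were counted on both strands, over the 250 bases before and 50 after the start. The ETS core CCGGAA was found in 15 of 40 members, 37.5%, against 15.8% of all genes. AAGATGG, the core of the YY1 motif, was found in 8 of 40, 20%, against 7.3%. The GC box GGGCGG was found in 24 of 40, 60.0%, against 34.9%. The E-box CACGTG was found in 3 of 40, 7.5%, against 6.65%, and TATAAA in 6 of 40, 15.0%, against 14.3%. These are letters in a window and not sites of binding, and no motif contains another.

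The widest difference among the ribosomal transcripts was neither of state nor of structure but between the 2 sets of rats. In 29 of the 42 genes, 69.0%, the pool of set 1 was higher than that of set 2 in all 6 groups, against 10.9% of all probe sets, and in 0 genes was set 2 higher in all 6, against 12.6%. The median difference of the 37 bright genes was 0.23, or 1.17-fold. By group their median log2 signal was 11.13 and 10.92 in deprived, 11.06 and 10.82 in recovery and 11.16 and 10.82 in control hippocampal formation (set 1, then set 2). In the neocortex it was 11.01 and 10.72 in deprived, 11.05 and 10.81 in recovery and 11.07 and 10.77 in control rats.

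**Figure D5:**
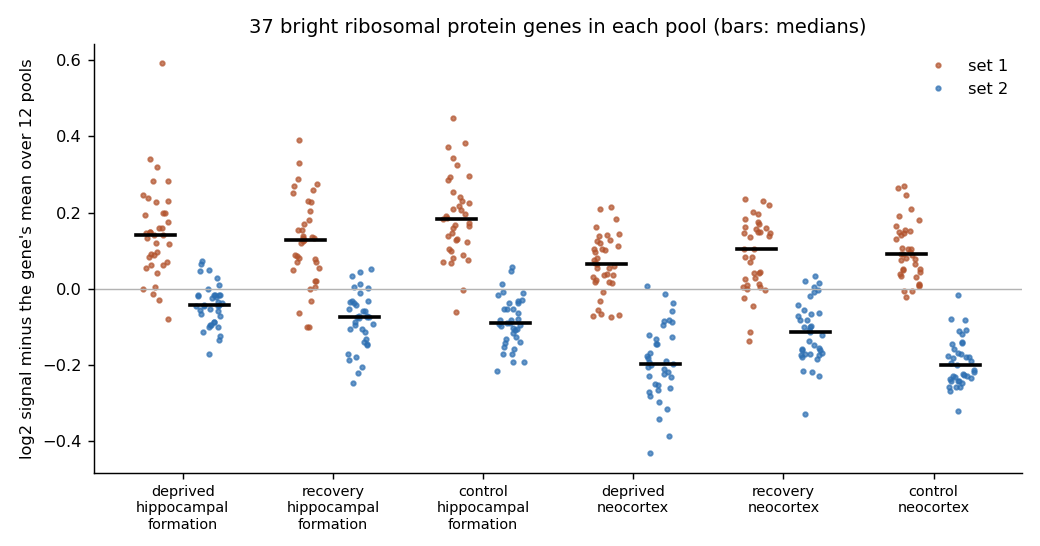
Log2 signal of each of the 37 bright genes relative to its own mean over 12 pools, by group and set, with medians as bars. In each of the 6 groups the median of set 1 lies above that of set 2, by more than the medians of the states within a structure and set differ.

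Rps3 differed most between sets, by 0.49 on average and by 0.30 to 0.66 within groups, followed by Rpl26 (0.42), Rpl26l1 (0.39), Rps6 (0.39) and Rpl5 (0.36). Rpl24 (0.019), Rpl21 (0.043) and Rpl18 (0.061) differed least, and the dim Rps27l (-0.41), Rps4y2 (-0.34) and Rpl39 (-0.20) were lower in set 1. The 2 arrays of a pool of set 1 were closer together. Their median absolute difference over the 37 genes was 0.050 to 0.10 by group. For Rps3 both arrays of set 1 lay above the array of set 2 in all 6 groups, as in deprived hippocampal formation with 11.53 and 11.46 in set 1 and 10.83 in set 2.

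Other bright probe sets showed less of it. Their median difference between sets was 0.082, and 206 of 630, 32.7%, were higher in set 1 in all 6 groups. The 630 still hold the 31 that name a ribosomal protein together with a further symbol. After quantile normalization the bright members still differed by 0.10 and 19 of the 42 genes, 45.2%, were higher in set 1 in all 6 groups, against 11.2% of all probe sets and 15.4% of the other bright ones. Of the marker lists, 3 had a higher summed signal in set 1 in all 6 groups. The endothelial list had a lower one in all 6, and the remaining lists went both ways. The 3 choroid plexus markers kept summed to 1195 to 4822 in set 1 and 139 to 1328 in set 2. The 7 oligodendrocyte markers summed to 11802 to 15342 in set 1 and 10067 to 11918 in set 2. The 7 hippocampal neuron markers summed to 2441 to 2696 in set 1 and 1946 to 2244 in set 2 of the hippocampal formation, and to 696 to 755 in set 1 and 615 to 652 in set 2 of the neocortex. The 7 endothelial markers summed to 921 to 961 in set 1 and 928 to 1080 in set 2 of the hippocampal formation. In the neocortex they summed to 1086 to 1131 in set 1 and 1189 to 1264 in set 2. In each state of the neocortex the beta-actin 3′ to 5′ ratio was higher in set 1, at 2.68 to 3.17 against 2.35 to 2.83. That of GAPDH was lower in set 1 there, at 1.05 to 1.08 against 1.12 to 1.17. In the hippocampal formation both ratios went both ways. The part of these cells and of RNA quality in the difference between sets was not tested. The sets are separate rats, and whether they were also handled or hybridised apart is not given in the sources used here, so animals and handling cannot be told apart. No test was run on this difference.

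Genes that serve the same machinery were read from lists chosen by function. Between states none of their members was called in any comparison. Of 12 other transcripts with a terminal oligopyrimidine tract (elongation and initiation factors and their like), 3 were higher in deprived than control neocortex. The median there was -0.049, and it was -0.021 in the hippocampal formation. In recovery minus deprived neocortex 10 of 12 were higher, with a median of 0.052, and the hippocampal median was -0.038. For recovery minus control the medians were -0.005 in the neocortex and -0.027 in the hippocampal formation. Of 69 ribosome assembly factors kept, the medians of the 6 comparisons lay between -0.012 and 0.012. Utp20 (0.51) and Utp18 (-0.55), of the small subunit processome, had the smallest p-values in deprived minus control hippocampal formation, with adjusted p = 1.0 for both (limma). Of 35 genes of the mTOR pathway, Ddit4, an inhibitor of mTOR induced by stress, had the smallest p, with -0.46 in recovery minus deprived neocortex (unadjusted p 0.00641, adjusted p = 1.0, limma).

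Between the structures 9.4% of all probe sets were called higher and 10.5% lower, or 20.3% and 22.7% with the replicate block. Without the block most of these lists had a share called higher near 9.4%, and only the mTOR list held genes called lower. Of the 12 tract-bearing partners 2 were higher in the hippocampal formation and 0 lower. These were Hnrnpa1, by 0.44, and Eef1d, of the elongation factor exchange complex, by 0.29. The list's median was 0.074, beside 0.073 for the ribosomal proteins and 0.069 for the other bright probe sets. Quantile normalization took the median of the ribosomal proteins to 0.008, and the list was not read after it. With the block 4 were higher and 0 lower. Of 69 assembly factors 6 were higher and 0 lower, among them Noc4l (0.45), Tsr1 (0.41), the box C/D methyltransferase Fbl (0.33) and its partner Nop56 (0.30). With the block 16 were higher and 4 lower. Of 19 genes for RNA polymerase I and its factors 2 were higher, Polr2k (0.31) and Polr2f (0.23), subunits shared by the RNA polymerases, and with the block 4 were higher and 2 lower. Of 35 mTOR pathway genes 3 were higher and 6 lower, with Ddit4l higher by 1.28 and Deptor (-0.63), Rps6ka3 (-0.56) and Rps6ka2 (-0.55) lower, and with the block 10 were higher and 9 lower. The adjusted p-values of the genes named here lay between 0.000438 and 0.0440 (limma, without the block).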

How the data were processed

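The authors deposited a linear intensity for each probe set, computed with MAS5 per the submitters' processing notes, whose version and scaling target are not given in the sources used here. Every array had a trimmed mean of 100.03 (2% off each end), which shows scaling of all arrays to 1 level before deposit.

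Signals were raised to a floor of 1 and log2-transformed, the 2 arrays of a pool of set 1 were averaged, 57 control probe sets were left out, and the lowest 40% of 31042 by mean were left out (a signal under 19.7), which kept 18625. Names came from the platform annotation (20832 probe sets with 1 symbol, 436 with several, 9831 with none). The test was limma 3.58.1 in R 4.3.3 (lmFit, eBayes with an intensity trend) on 6 group means over 12 pools. Structures and interactions were tested on hippocampal minus neocortical differences of the 6 animal pools. Calls needed a Benjamini-Hochberg p under 0.05 over all probe sets kept. The procedure was tested on simulated data.

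The number of the set pairs pools across states. Deviations from the group means of pools with the same number correlated across probe sets with r of 0.54 to 0.68 in each of the 6 pairs of groups within a structure, and both structures of a pool came from the same rats. Fits with this replicate block are given beside the results they change. P-values measure the spread between pools of 6 rats, and the number of arrays limits the precision. Alternatives were a floor of 16, no filter, quantile normalization, median centring, the mean of a gene's probe sets, shared-probe sets left out, all 18 arrays with a pool correlation of 0.3, and each pool left out.

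The members, the lists and the rule for named genes were chosen with earlier results of these data known. Named were the 4 highest and 4 lowest changes of each state comparison, the 6 highest and 6 lowest differences between structures, the 5 brightest and 5 dimmest genes kept, genes of known role, called genes, and of each list up to 4 called genes or the smallest p-values. Genes under the filter, second probe sets and technical arrays were added as values. Recovery is described by the sample labels (6 h of sleep following 72 h on the platforms).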

Additional observations from a re-analysis of the deposited data

How the results depend on the processing

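No count of called genes between states or of interactions left 0 under any alternative. The count between structures was 7 and became 2 without a filter, 3 after quantile normalization, 4 when a gene's probe sets were averaged (without Rpl3, Rpl7 and Rps24), 16 with the replicate block (15 higher, 1 lower), 15 with the replicate block and quantile normalization (9 higher, 6 lower, chosen after seeing the data), and 1 to 5 when a pool was left out. Median centring raised the count between structures to 8 higher and 0 lower. With members on shared-probe sets left out it was 6 of 40. Quantile normalization also took the median of that comparison to 0.0077, with and without the block, and that of Rps27l to 0.02. The causes were not tested, except that a fit without a pool has fewer samples. Leaving out a pool between states makes the sets unequal in the groups compared, so these values take in the difference between sets. The medians then ranged from -0.12 to 0.12 for deprived minus control hippocampal formation, from -0.16 to 0.11 for recovery minus control and from -0.11 to 0.056 for recovery minus deprived. In the neocortex they ranged from -0.14 to 0.13, from -0.090 to 0.18 and from -0.069 to 0.16 for the same comparisons. Single genes changed sign as well when a pool was left out. In deprived minus control hippocampal formation these were Rpl19 (-0.37 to 0.11), Rpl23 (-0.19 to 0.30), Rpl26 (-0.12 to 0.26), Rpl39 (-0.37 to 0.11), Rps27l (-0.60 to 0.21), Rps28 (-0.044 to 0.23) and Rps3 (-0.15 to 0.51). In recovery minus control hippocampal formation they were Rpl12 (-0.073 to 0.14), Rpl26l1 (-0.29 to 0.11), Rpl39 (-0.60 to 0.37), Rps15a (-0.19 to 0.28), Rps24 (-0.32 to 0.12), Rps27l (-0.67 to 0.14), Rps28 (-0.067 to 0.21) and Rps4y2 (-0.065 to 0.39). In recovery minus deprived hippocampal formation they were Rpl12 (-0.069 to 0.14), Rpl19 (-0.078 to 0.26), Rpl26l1 (-0.34 to 0.045), Rpl27 (-0.064 to 0.17), Rpl7 (-0.21 to 0.042), Rps3 (-0.50 to 0.16) and Rps4y2 (-0.058 to 0.55). In deprived minus control neocortex they were Rpl21 (-0.11 to 0.22), Rpl22 (-0.29 to 0.13), Rpl23 (-0.31 to 0.037), Rpl26 (-0.33 to 0.16), Rps16 (-0.079 to 0.26) and Rps27l (-0.31 to 0.076). In recovery minus control neocortex they were Rpl12 (-0.013 to 0.26), Rpl13a (-0.052 to 0.30), Rpl23 (-0.23 to 0.046), Rpl23a (-0.16 to 0.005), Rpl26l1 (-0.33 to 0.14), Rps16 (-0.032 to 0.30) and Rps9 (-0.27 to 0.097). In recovery minus deprived neocortex they were Rpl26 (-0.11 to 0.37), Rpl26l1 (-0.34 to 0.13), Rpl27 (-0.10 to 0.38), Rpl27a (-0.097 to 0.45), Rpl7l1 (-0.14 to 0.0), Rps27l (-0.019 to 0.37) and Rps4y2 (-0.28 to 0.15). Between structures, Rpl21 ranged from -0.13 to 0.012 and Rps27l from -0.18 to 0.004. The replicate block changed no other call of a named gene between states.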
